A study of Mus musculus with 108 samples.

Results

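Germline genes are the genes that mouse egg and sperm cells use and that other cells keep silent. A list of 40 was taken from the meiotic, piRNA, oocyte and spermatid programmes, out of 26089 RefSeq genes with a curated transcript. The rule is a list of gene names, and the question was which silent chromatin state holds their promoters in liver. Chromatin was characterised by ChIP-seq of 4 marks of histone H3 (H3K4me1, H3K4me3, H3K27ac and H3K27me3) in whole livers of inbred C57BL/6 females. All livers were fixed in formalin and embedded in paraffin. The group SD 3m held 8 mice that were 3 months old on standard diet (30 libraries). The group SD 12m held 8 mice of 12 months on standard diet (29 libraries). The group CR 12m held 9 mice of 12 months kept since the age of 3 months on a diet with 30% fewer calories (29 libraries). A group of 6 months was not analysed here. The labels name no transgene or deletion.

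The measurement is a label. The authors merged the libraries of a group and gave each bin of 200 bp in the genome 1 of 8 states. In the authors' names, state 1 is the active transcription start site (TSS) and state 2 the flank of one. States 3 and 4 are active enhancers and state 5 is a poised enhancer. State 6 is Polycomb repression, which carries H3K27me3 and little else of what was measured. State 7 covers repeats with faint H3K4me3, and state 8 is quiescent, with none of the 4 marks. States 6, 7 and 8 are the silent states. Each group has 1 segmentation, so no value has a replicate and no test across mice was made. Values per mouse were not used. Shares are given beside the share of all genes. SD 12m and CR 12m were each set against the one SD 3m segmentation, so the 2 comparisons are not independent.

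Germ cells pass through meiosis, in which homologous chromosomes pair along the synaptonemal complex and recombine, and they silence transposons with piRNAs made in cytoplasmic granules called nuage. In the rest of the body these genes are off, and many of them are known to be shut by DNA methylation of a CpG-rich promoter. Many are also known targets of a Polycomb complex that holds MGA, MAX and E2F6, which recognise the letters CACGTG (MGA with MAX) and TCCCGC (E2F6). DNA methylation was not measured in this study, and in state 8 a methylated promoter and any other unmarked promoter carry the same label.

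As a check of the tissue, the TSS bins of all 8 hepatocyte markers were in states 1 to 4 in every group, among them Apob, Cps1 and Tat in state 1 throughout. Of 5 Kupffer cell and leukocyte markers, Csf1r was in state 3 in each group, Clec4f and Cd3e were in state 6 in each group, Adgre1 was in state 5, 6 and 8 (SD 3m, SD 12m, CR 12m, the order used for all lists of 3 values), and Ptprc in 5, 5 and 8. Clec4f marks Kupffer cells, which every liver holds, and was nonetheless labelled silent. Of 7 endothelial, stellate and bile duct markers, only Lyve1 kept its label, state 3. Pecam1 was in state 2, 3 and 3, Pdgfrb in 5, 4 and 4, and Stab2 in 4, 7 and 4. Epcam was in state 4, 4 and 8, Krt19 in 8, 8 and 4, and Lrat in 8, 6 and 8. In whole liver, fewer cells of a type cannot be told apart from less of a mark per cell. Over the genome, state 6 covered 9.48%, 14.4% and 10.3% of bins in SD 3m, SD 12m and CR 12m, and state 8 covered 66.1%, 51.6% and 62.7%. The merged H3K27me3 libraries numbered 7, 8 and 6 in these groups, and the part of that number in the results was not tested.

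Promoter sequences of 6 members are shown for how differently germline promoters are built and marked. Dmc1 and Meioc stayed in state 6 in every group, Ddx4 and Mael were in state 6 in SD 3m only, and Sycp1 and Prm1 were in state 8 throughout. Each sequence runs 5′ to 3′ on the strand of the gene, from 250 bases before to 50 bases after the start, from RefSeq on GRCm38.p6, the assembly called mm10. Capitals mark TCCCGC, read on both strands (so also GCGGGA), and CACGTG, which reads the same on both strands. A match of one was counted whether or not it overlapped the other. Dmc1 is at chr15:79605060-79605359, Meioc at chr11:102665335-102665634, Ddx4 at chr13:112652261-112652560, Mael at chr1:166238695-166238994, Sycp1 at chr3:102936051-102936350 and Prm1 at chr16:10796774-10797073. Meioc lies on the plus strand and the others on the minus strand.
Dmc1: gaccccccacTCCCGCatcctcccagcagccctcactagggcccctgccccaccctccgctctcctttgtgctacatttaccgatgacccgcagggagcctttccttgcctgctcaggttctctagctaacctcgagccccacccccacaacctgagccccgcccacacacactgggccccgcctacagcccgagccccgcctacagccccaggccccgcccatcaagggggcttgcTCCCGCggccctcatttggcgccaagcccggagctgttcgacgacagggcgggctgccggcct
Meioc: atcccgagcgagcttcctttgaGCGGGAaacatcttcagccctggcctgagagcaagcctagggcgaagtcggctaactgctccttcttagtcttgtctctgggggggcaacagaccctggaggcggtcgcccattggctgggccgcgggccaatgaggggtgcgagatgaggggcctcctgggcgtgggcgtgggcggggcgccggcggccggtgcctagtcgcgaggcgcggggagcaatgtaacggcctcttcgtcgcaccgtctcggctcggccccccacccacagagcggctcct
Ddx4: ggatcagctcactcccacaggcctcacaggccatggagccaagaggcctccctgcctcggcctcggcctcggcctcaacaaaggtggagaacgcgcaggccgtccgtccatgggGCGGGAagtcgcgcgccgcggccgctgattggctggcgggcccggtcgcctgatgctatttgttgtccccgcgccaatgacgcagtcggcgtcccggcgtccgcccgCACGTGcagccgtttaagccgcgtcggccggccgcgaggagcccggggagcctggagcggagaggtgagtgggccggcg
Mael: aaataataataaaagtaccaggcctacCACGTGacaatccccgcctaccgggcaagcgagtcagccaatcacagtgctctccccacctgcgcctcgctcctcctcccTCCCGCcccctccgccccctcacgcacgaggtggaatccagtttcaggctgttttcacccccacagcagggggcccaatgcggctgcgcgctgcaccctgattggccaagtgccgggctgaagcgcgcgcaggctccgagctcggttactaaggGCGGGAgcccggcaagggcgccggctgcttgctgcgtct
Sycp1: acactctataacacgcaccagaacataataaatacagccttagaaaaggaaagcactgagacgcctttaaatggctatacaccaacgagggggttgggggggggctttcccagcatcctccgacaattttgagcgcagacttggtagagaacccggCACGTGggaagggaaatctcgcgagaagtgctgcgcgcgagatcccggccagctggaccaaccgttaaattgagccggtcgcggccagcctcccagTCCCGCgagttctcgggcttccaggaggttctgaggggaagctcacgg
Prm1: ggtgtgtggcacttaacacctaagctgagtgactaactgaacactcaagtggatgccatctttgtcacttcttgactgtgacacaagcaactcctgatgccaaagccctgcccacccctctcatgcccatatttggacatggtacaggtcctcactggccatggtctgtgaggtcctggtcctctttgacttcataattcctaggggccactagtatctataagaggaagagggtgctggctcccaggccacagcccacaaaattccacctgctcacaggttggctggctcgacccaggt

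The 300 bases of Dmc1 held TCCCGC at 2 places and no CACGTG, and those of Meioc held it once. Ddx4 and Sycp1 held each motif once, and Mael held TCCCGC at 2 places and CACGTG once. Prm1 held neither motif and 1 CpG, against 38 CpG in Ddx4 and 21 in Sycp1. TCCCGC was thus present in promoters that kept state 6, in promoters labelled 6 only at 3 months, and in one never labelled 6.

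At the TSS bin, state 6 held 16 of 40 germline genes in SD 3m (40%, Wilson 95% interval 26.3 to 55.4%), where 11% of all genes were in it. In SD 12m it held 9 (22.5%) against 14.9% of all genes, and in CR 12m 8 (20%) against 12.2%. State 8 held 14 members in SD 3m (35.0%, interval 22.1 to 50.5%), 21 (52.5%) at 12 months on standard diet and 23 (57.5%) under caloric restriction, against 29.1%, 22.9% and 27.5% of all genes. In SD 3m the germline promoters were thus split between the Polycomb and the quiescent state in near equal numbers, and in both groups of 12 months more were quiescent. Among all genes, the share in state 6 was higher in both 12-month groups and the share in state 8 was lower, the opposite order to the germline genes. The intervals cover counting error over the list only.

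State 7 held no member in any group, against 1.64%, 3.84% and 1.43% of all genes, and 0 of 40 allows a share of up to 7.50% if 3 counts are taken as the limit (Wilson upper limit 8.76%). States 1 and 2 held no member either, although 40.1%, 34.7% and 30.7% of all genes were in them. States 3 to 5 held 10, 10 and 9 members, against 18.2%, 23.6% and 28.2% of all genes. In all 3 groups 28 members (70.0%) had a silent TSS bin, where 37.7% of all genes did.

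**Figure D1:**
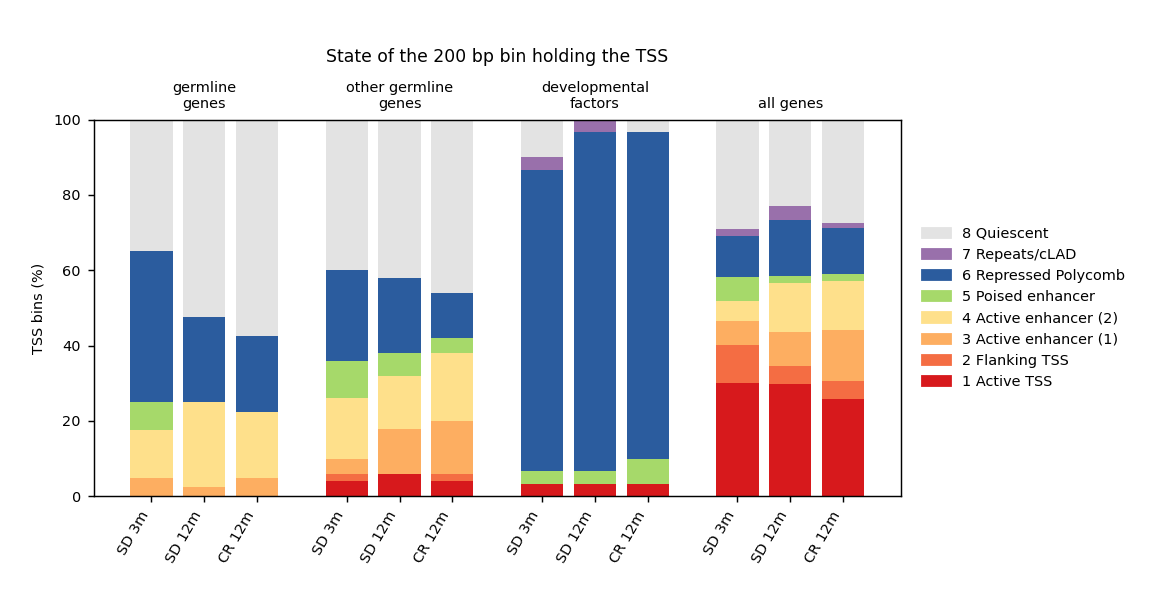
Percent of TSS bins in each of the 8 states (vertical axis) for the 40 germline genes, 50 other germline genes, 30 developmental factors and all 26089 genes in SD 3m, SD 12m and CR 12m. Each bar is 1 segmentation of merged libraries. The blue share (state 6) of the germline genes goes from 40% to 22.5% and 20%, and the grey share (state 8) from 35.0% to 52.5% and 57.5%.

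Relative to SD 3m, 16 of the 40 TSS bins (40%) had changed state in SD 12m, and 12 (30%) had by CR 12m. The background was 32.6% and 34.7% of all genes, so the number of members that changed was near it. Of the 16 members that state 6 held in SD 3m, SD 12m had 7 in state 8, where 19.8% of all genes that started in state 6 were. In CR 12m 7 of the 16 were in state 8, against 27.9%. In the reverse direction, 2 of the 14 members in state 8 (Tdrd6 and Piwil4) were in state 6 in SD 12m, against 20.8% of all such genes, and none was in CR 12m, against 14.0%. Syce1, Ddx4, Mael, Tex15 and Figla lost state 6 for state 8 in both 12-month groups, Sycp2 and Stag3 in SD 12m alone, and Brdt and Zar1 in CR 12m alone.

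**Figure D2:**
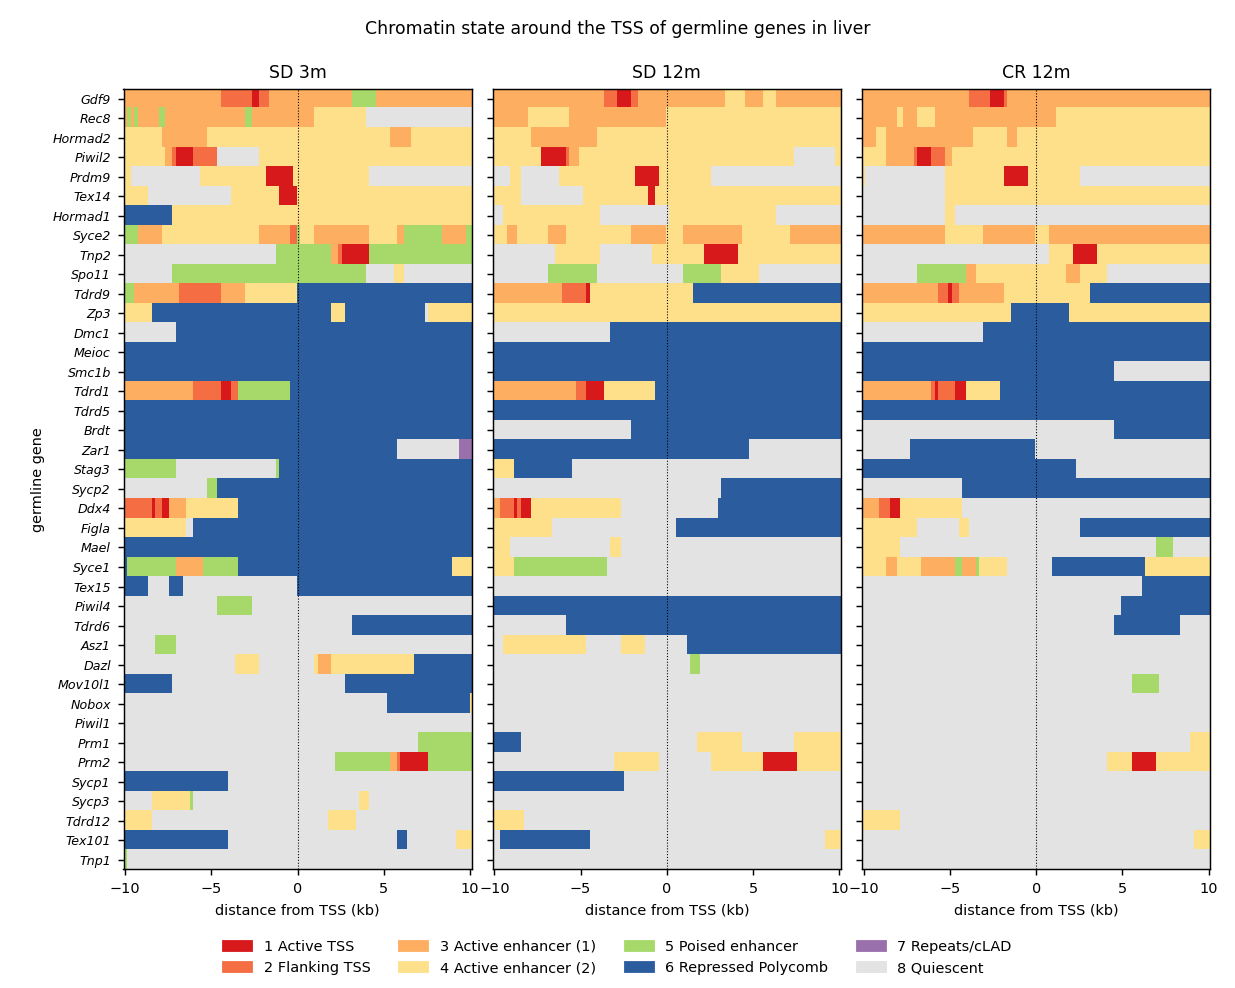
State of each bin of 200 bp from 10 kb before to 10 kb after the TSS (horizontal axis, kb, in the direction of transcription) of the 40 germline genes (rows, ordered by their states at the TSS), with 1 panel per group. Dmc1, Meioc, Smc1b, Tdrd1 and Tdrd5 stay blue (state 6) at the TSS in each panel, and the rows from Stag3 to Tex15 are blue at the TSS in SD 3m and grey (state 8) in SD 12m.

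The synaptonemal complex joins paired chromosomes. Sycp1, its transverse filament, was in state 8 in all 3 groups, and so was Sycp3, a protein of the lateral element. Sycp2, the partner of Sycp3, was in state 6 in SD 3m, 8 in SD 12m and 6 again in CR 12m, and its whole window of 2 kb on either side of the TSS followed (100% state 6, 100% state 8, 100% state 6). Its gene body stayed in state 6 for 100%, 94.9% and 100% of its bins, so in SD 12m the label was gone from the start and kept over nearly all of the gene. Syce1, of the central element, was in state 6, 8 and 8, and its gene body was in state 6 for 83.3%, 0% and 50% of its bins. Syce2, also of the central element, was the one gene of these 5 in enhancer states, with its TSS bin in state 5, 4 and 4 and its window in state 3 for 66.7%, 76.2% and 81.0%.

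Cohesin subunits used in meiosis hold sister chromatids together. Smc1b was in state 6 in all 3 groups with its entire window, while state 6 over its gene body was 75.4%, 65.6% and 34.7%. Its start lies 141 bp from that of Ribc2, which was in state 6 in the 3 groups as well. Stag3 was in state 6, 8 and 6. Its gene body went from 76.2% state 6 to 0% and 7.50%, so CR 12m had the label at the promoter and hardly in the gene. Gpc2 starts 572 bp from Stag3 and had the same 3 labels, so the pair cannot be told apart. Rec8, the third subunit, was in state 3, 4 and 3, with its nearest start 14181 bp away. No bin of its window was silent in any group, and state 3 took 71.4%, 47.6% and 76.2% of it.

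The HORMA domain proteins coat chromosome axes that have not yet paired. Hormad1 was in state 4 in SD 3m, with 100% of its window in state 4, and in state 8 in both 12-month groups. State 4 took 47.6% of its window in SD 12m and none in CR 12m. Hormad2 was in state 4 in each group, although the next gene, Mtmr3, starts 153733 bp away. State 6 covered 43.6% of the Hormad2 body in SD 3m and none of it in either 12-month group.

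Of the genes for meiotic entry and recombination, Dmc1, the recombinase of meiosis, and Meioc, which keeps cells in meiotic prophase, were in state 6 in all 3 groups with 100% of their windows. State 6 covered 100% of the Dmc1 body in each group and 100%, 84.7% and 98.8% of the Meioc body. Spo11, which makes the breaks that start recombination, was in state 5, 8 and 4. Its window was wholly state 5 at first, then 71.4% state 8 (SD 12m) or 90.5% state 4 (CR 12m), a different label in every group. Prdm9, the methyltransferase that marks recombination hotspots with H3K4me3, was in state 4 in each group.

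Prdm9 had more of state 1 near its start than any other member. State 1 covered 38.1%, 33.3% and 33.3% of its window, all of it on the upstream side, from 1800 to 400 bp before the start in SD 3m and from 1800 to 600 bp before it in the 12-month groups. The nearest other gene, Pdcd2, starts 36030 bp away. Another curated Prdm9 transcript starts 1023 bp upstream of the one used, on chromosome 17 at base 15564354, and that start was in state 1 in all 3 groups. With that start 1 of 40 members would be in states 1 or 2 in each group. The marks measured do not say which transcript is made or whether any is.

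The piRNA and nuage genes were the largest role, with 12 members. State 6 held 5, 4 and 2 of them, and state 8 held 6, 6 and 8. Tdrd1 and Tdrd5, Tudor domain proteins of the piRNA pathway, were in state 6 in each group. Tdrd5 was in state 6 for 100% of its window and gene body throughout, inside a stretch of state 6 of 113200, 92600 and 98800 bp. Tdrd1 was in state 6 although state 1 or 2 began 3600, 3800 and 4200 bp away towards Ccdc186, which starts 4010 bp from it and was in state 1. State 5 in SD 3m (38.1%) and state 4 in SD 12m (33.3%) took the rest of its window, and in CR 12m it was wholly state 6.

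Ddx4, the Vasa helicase of nuage, and Mael, which is needed for piRNA-directed silencing, were in state 6 in SD 3m with 100% of their windows, and in state 8 with 100% of their windows in both 12-month groups. State 6 over the gene body was 70.1%, 34.7% and 0% for Ddx4 and 100%, 18.6% and 7.45% for Mael. The loss thus took in the gene and not the start alone. The nearest bin of state 6 was 3000 bp from the Ddx4 start in SD 12m and 69200 bp from it in CR 12m.

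Tdrd6 and Piwil4 went the other way. Tdrd6 was in state 8, 6 and 8, with 100% of its window in that state each time, and state 6 covered 78.9%, 100% and 25% of its gene body. Piwil4, which encodes the nuclear PIWI protein MIWI2, was also in state 8, 6 and 8 with its entire window, and state 6 over its gene body was 30.1%, 52.0% and 62.2%. In both genes the body already held state 6 in SD 3m, and in SD 12m the label covered the start as well.

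Tdrd9, a helicase with a Tudor domain, was in state 6 in SD 3m and 4 in both later groups. Its start lay at the edge of a state 6 stretch in SD 3m, with 52.4% of the window in state 6 and 47.6% in state 4, and the share of state 6 was 14.3% and 0% in SD 12m and CR 12m. Piwil2, the MILI protein of fetal and adult male germ cells, was in state 4 with its entire window in each group. States 3 and 4 covered 52.3% and 46.7% of the Piwil2 body in SD 3m, and Polr3d, which starts 6573 bp away, was in state 1. Tdrd12, Asz1, Piwil1 and Mov10l1 were in state 8 at the TSS in all 3 groups. Piwil1, which encodes the spermatid protein MIWI, lay deepest in silent chromatin of the members, in a run of silent bins of 1351400 bp in SD 3m, with its whole body in state 8 in each group.

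A label of 8 at the start did not mean that state 6 was absent from the gene. Mov10l1, the helicase that feeds piRNA precursors to PIWI proteins, had state 6 over 65.2%, 37.0% and 13.0% of its body. Asz1, a nuage protein at mitochondria, had 14.4%, 29.5% and 4.11%. Tdrd12 had 26.8% in SD 12m and none in the other groups. Of the 14 members in state 8 at the start in SD 3m, 7 had state 6 somewhere in the body, and these numbers were 9 of 21 and 10 of 23 in the later groups. Of all genes with a start in state 8 the share was 13.6%, 14.9% and 14.7%, but their bodies were shorter, with a median of 33 bins against 74.5 in SD 3m, and a longer body has more bins in which the label can occur.

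Among other germ cell factors, Dazl, an RNA-binding protein needed for germ cells to mature, was in state 8 at its start in each group. In SD 3m its body was 53.4% state 6, with 34.25% in state 4 and 5.48% in state 3. State 6 was absent from it in both 12-month groups, in which state 8 took 95.9% and 100%. Tex15, which acts in piRNA silencing, was in state 6, 8 and 8. It was the one low-CpG member in state 6, its start lay at the edge of the stretch in SD 3m (52.4% state 6 and 47.6% state 8 in the window), and state 6 over its body was 100%, 26.3% and 59.2%. Brdt, the testis member of the BET bromodomain proteins, was in state 6, 6 and 8. Its window went from 100% state 6 in both SD groups to 100% state 8 in CR 12m, while state 6 over its body differed less (48.8%, 39.1% and 36.7%).

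Tex14, which keeps the bridges between germ cells open, was in state 4 in each group, and its start lies 111 bp from that of another gene. State 1 took 23.8%, 9.52% and 0% of the Tex14 window, on the side of that gene, so a label there cannot be given to one of the pair. Tex101, a surface protein of germ cells, was in state 8 with 100% of its window and body in every group.

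Of the oocyte genes, Nobox and Figla are transcription factors of the early oocyte. Nobox was in state 8 in each group, and Figla in 6, 8 and 8, with state 6 over 100%, 85.0% and 35.0% of its body. Zar1, an oocyte protein that the early embryo needs, was in state 6, 6 and 8. Both its window and its body were wholly state 6 in both SD groups, and in CR 12m its body was wholly state 8 and the edge of state 6 lay 200 bp from its start. Zp3, a glycoprotein of the egg coat, was in state 6, 4 and 6, and state 4 covered all of its window and body in SD 12m. Gdf9, a growth factor secreted by the oocyte, was in state 3 in each group, with 90.5% of its window in state 3 and the active start of Uqcrq, a mitochondrial gene, 2455 bp away.

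The protamines Prm1 and Prm2 and the transition proteins Tnp1 and Tnp2 replace histones in the spermatid. None of the 4 was in state 6 in any group. Prm1, Prm2 and Tnp1 were in state 8 throughout and Tnp2 was in state 5, 4 and 8. Prm1, Prm2 and Tnp2 lie in 1 cluster on chromosome 16, with 4718 and 3450 bp between their starts and Prm3 between Prm2 and Tnp2, and in CR 12m they shared a single stretch of state 8 of 46400 bp, so they are not separate observations there. Prm1 and Prm2 also shared one of 21800 bp in SD 3m. State 1 or 2 began 2400, 2200 and 2200 bp from the Tnp2 start.

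Within 2 kb of the TSS, the 40 members averaged 36.0%, 23.6% and 21.4% state 6 and 36.2%, 47.7% and 54.5% state 8. All genes averaged 11.6%, 15.0% and 12.3% state 6 and 29.2%, 23.6% and 27.9% state 8. Most silent windows were of 1 state, since 11, 8 and 7 windows were wholly state 6 and 12, 14 and 20 were wholly state 8. Of all genes 8.72%, 12.4% and 9.98% had a window wholly in state 6, and 23.3%, 17.8% and 22.7% one wholly in state 8. The state of the TSS bin therefore stood for that of its surroundings in most members.

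State 6 lay after the starts of members more than before them. From 200 bp to 10 kb upstream, the share of members in state 6 had a median over positions of 27.5%, 20% and 12.5%. Over the same distance downstream it was 45.0%, 32.5% and 25%. Some members are shorter than that, such as Prm1 with 492 bp, so their downstream bins reach beyond the gene. All genes were read at 5 kb only and not as a median over positions. Their shares were 15.5%, 14.9% and 12.5% at 5 kb upstream and 11.7%, 14.1% and 11.9% at 5 kb downstream. That order was opposite to the one of the germline medians, though the 2 sides were close in SD 12m and CR 12m. The developmental factors held 83.3%, 96.7% and 90.0% at 5 kb upstream and 73.3%, 86.7% and 80.0% at 5 kb downstream.

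**Figure D3:**
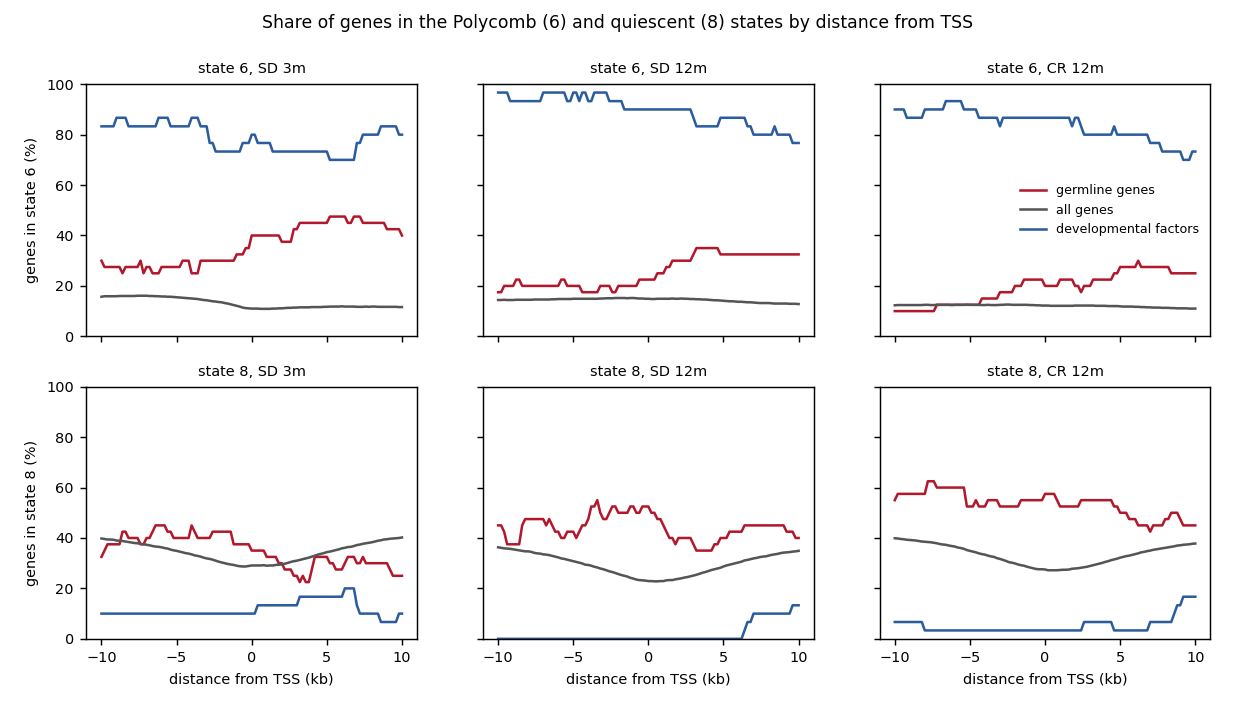
Percent of genes in state 6 (upper row) and state 8 (lower row) at each distance from the TSS (horizontal axis, kb, in the direction of transcription) for the 40 germline genes (red), all genes (grey) and 30 developmental factors (blue), with 1 column per group. The red state 6 line is higher after the TSS than before it in each group, with medians of 45.0% and 27.5% in SD 3m.

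Over the gene bodies, state 6 took on average 43.1%, 29.1% and 22.5% of the bins of a member, with medians of 29.3%, 1.52% and 0%. All genes averaged 10.2%, 12.6% and 10.2%. State 8 took on average 34.2%, 47.4% and 56.2%, with medians of 15.1%, 42.1% and 67.4%, where all genes averaged 40.5%, 34.7% and 37.7% with medians of 25.6%, 12.9% and 14.9%. The medians of the members depended on which bins and members were kept. For members of at least 5 kb the state 6 medians were 46.2%, 20.7% and 5.78%, and without the 2 kb after the TSS they were 45.6%, 21.5% and 0.173%. The state 8 medians in SD 3m and CR 12m were 15.1% and 48.1% for members of at least 5 kb, and 9.42% and 46.5% without the 2 kb. In SD 12m 18 members had a smaller share of state 6 in the body than in SD 3m, 6 a larger one and 16 an equal one. In CR 12m 20 had a smaller share and 2 a larger one, Piwil4 and Tdrd9. Of all genes 9.51% had a smaller and 12.2% a larger share in SD 12m, and 10.7% and 9.95% in CR 12m, so that over all genes the directions were near balance. Most of the 26089 genes had an equal share, 20423 in SD 12m and 20705 in CR 12m. Only a gene with state 6 in its body in SD 3m can have a smaller share later. Of the 40 members 26 had some, and members started higher (43.1% against 10.2% on average), so the 2 sets of counts are not alike in their start.

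**Figure D4:**
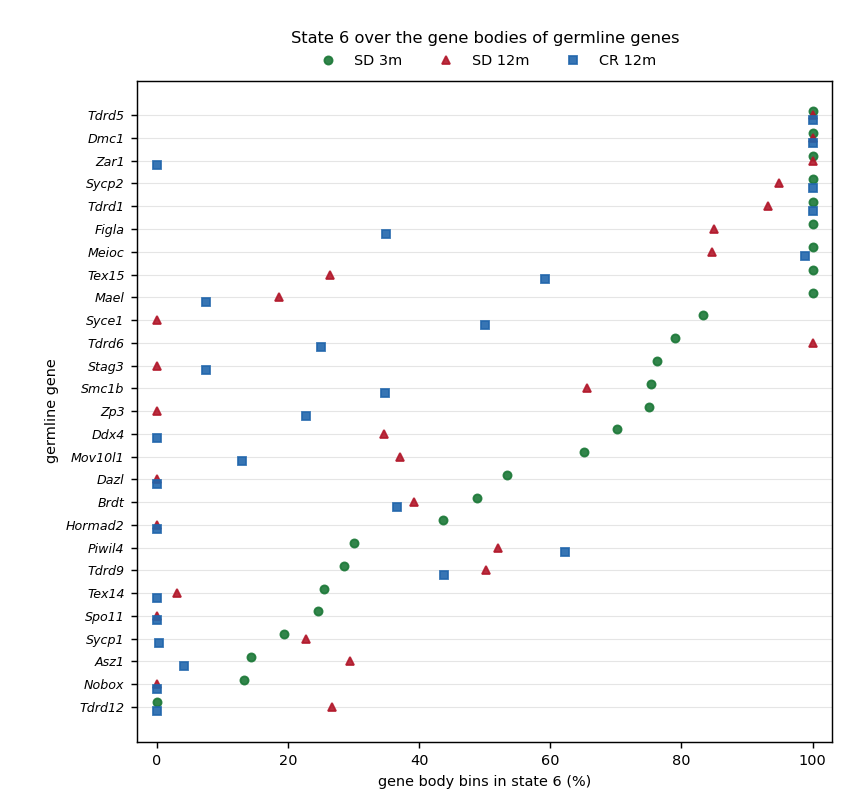
Percent of gene body bins in state 6 (horizontal axis) for the 27 members with any such bin, in SD 3m (green circles), SD 12m (red triangles) and CR 12m (blue squares). Of the blue squares, 20 lie left of the green circle of their gene, Tdrd5 and Dmc1 lie at 100% in each group, and Piwil4 and Tdrd9 have both later values to the right of SD 3m.

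The stretches of state 6 that held a member's start were broad. Their median length was 53200 bp in SD 3m (range 10400 to 113200), 51200 bp in SD 12m and 50000 bp in CR 12m, against 32200, 37800 and 33600 bp for all genes with a start in state 6. In SD 3m the stretch covered the whole body of 9 of the 16 members (56.2%), near the 49.0% of all genes with a start in state 6. Developmental factors, the classic Polycomb targets, had longer stretches with medians of 60700, 76200 and 64800 bp. The run of bins in states 6 to 8 around a silent germline start was shorter in the median than that of all silent starts. It had a median of 80300, 83400 and 95800 bp, against 269400, 358200 and 363200 bp.

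By the CpG content of the promoter, 18 members were of the high class, 17 intermediate and 5 low. The class comes from windows of 500 bp within 1 kb of the start, and is high where a window reaches a GC content of 55% and an observed-to-expected CpG ratio of 0.75 and low where none reaches a ratio of 0.48. Of all genes 44.5% were high, 20.4% intermediate and 35.1% low. Of all high-CpG genes, 71.3%, 64.0% and 57.5% were in states 1 or 2. Of the 18 high-CpG members none was at the TSS bin of the start used. The class is read over a wider region than that bin. In SD 3m, bins of state 1 or 2 lay 400, 200 and 200 bp upstream of the high-CpG members Prdm9, Tex14 and Syce2. With its most upstream curated start, Prdm9 would be in state 1 in each group. State 6 held 10, 7 and 7 of the 18, where it held 8.23%, 11.1% and 9.48% of all high-CpG genes. State 8 held 3, 8 and 7 of the 18, where it held 8.43%, 5.82% and 8.08%. With one window of 1 kb centred on the start, only 4 members would be high and 16 low, so the class depends on where CpG is counted.

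Members in the high class made up most of the state 6 set. They were 10 of 16 in SD 3m, with 5 intermediate ones and Tex15. Of all 2881 genes in state 6 in SD 3m, 955 were high, 840 intermediate and 1086 low. Of the 10 members, 4 were in state 8 in SD 12m and 3 in CR 12m, against 11.2% and 18.2% of all high-CpG genes that started in state 6. Of the 17 intermediate members, state 8 held 10, 11 and 13, where it held 28.3%, 22.4% and 27% of all intermediate genes. In SD 3m the median ratio of observed to expected CpG in 1 kb around the start was 0.657 for members in state 6 and 0.452 for members in state 8, and for all genes in these states it was 0.414 and 0.210.

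**Figure D5:**
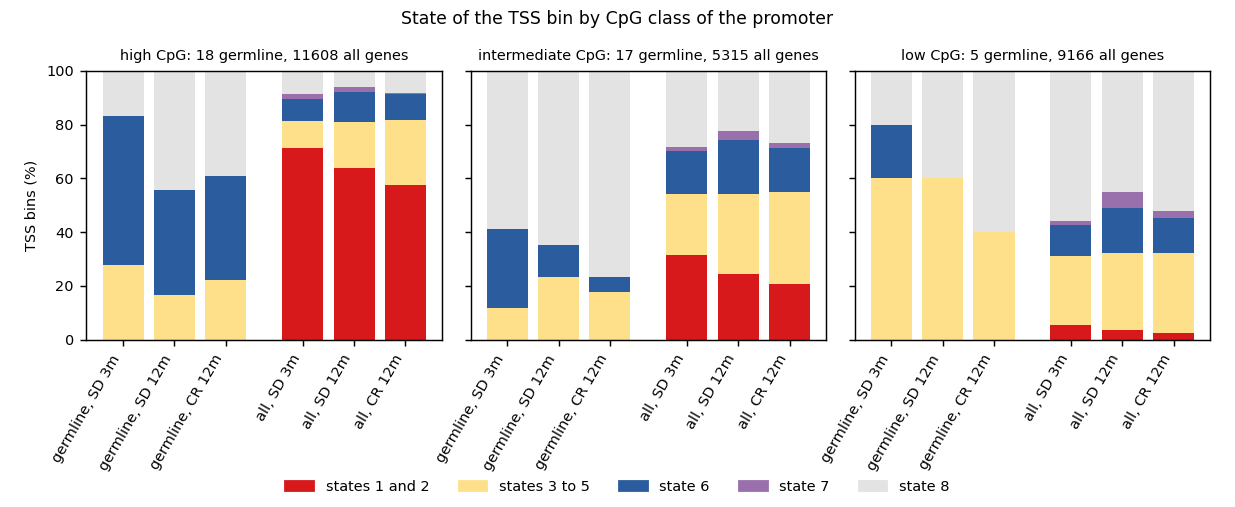
Percent of TSS bins in states 1 and 2, 3 to 5, 6, 7 and 8 (vertical axis) for germline genes and all genes, with 1 panel for each CpG class of the promoter and 1 bar for each group. In the high-CpG panel the red share (states 1 and 2) is 71.3%, 64.0% and 57.5% of all genes. It is 0% of the 18 germline genes at the TSS bin of the starts used.

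RefSeq promoter sequences of 300 bases matched 35 of the 40 members and 19453 genes in all. Tdrd6, Tex15, Spo11, Gdf9 and Piwil2 had no entry. TCCCGC was in 16 of the 35 (45.7%) and in 25.2% of all promoters, and CACGTG in 12 (34.3%) and in 8.08%. Both were in 7 (20%), namely Ddx4, Mael, Stag3, Hormad1, Sycp1, Sycp3 and Zp3, and in 2.66% of all promoters. Among high-CpG promoters, TCCCGC was in 13 of 16 members (81.2%) against 42.2%, and CACGTG in 6 of 16 (37.5%) against 11%. Of the 15 members in state 6 in SD 3m that had a sequence, 12 held either motif, and of the 13 in state 8, 4 did (30.8%). TCCCGC was in 9 of these 15 and 2 of these 13, and CACGTG in 7 and 4, so the sets differed mostly in TCCCGC. All genes in states 6 and 8 showed the same order. TCCCGC was in 20.9% and 10.4% of them and CACGTG in 6.57% and 4.52%. Either motif was in 30.6% of all promoters, in 25.5% of those in state 6 in SD 3m and in 14.0% of those in state 8. Both motifs hold a CG, and the sets were not matched for CpG. The median number of CpG was 20 and 15 for members in states 6 and 8, and 8 and 3 for all genes in them. Of the 5 members in state 6 throughout, Dmc1, Meioc, Smc1b and Tdrd5 held TCCCGC without CACGTG and Tdrd1 held CACGTG without TCCCGC. The Tdrd5 entry starts 258 bp from the start used here. These are matches of letters in a window and no binding was measured.

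The close relatives of the members that other cells use were in active states. Stag1, Stag2, Rad21 and Smc1a encode cohesin of somatic cells, Brd2 and Brd3 are BET relatives of Brdt, and Ago2, Mov10 and Ddx3x are relatives of the PIWI proteins, Mov10l1 and Ddx4. All 9 had a start in state 1 or 2 in at least 1 group, 7 of them in state 1 throughout. Stag1 was in state 4, 1 and 1 and Mov10 in 2, 1 and 1. None was in a silent state in any group.

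Developmental factors such as Pax6, Sox2 and Neurog1 showed the other pattern. State 6 held 24, 27 and 26 of the 30, and 23 of them in all 3 groups, against 5 of the 40 germline genes (12.5%) and 6.6% of all genes. None of the 24 was in state 8 in both 12-month groups, where 5 of the 16 germline genes (31.2%) and 13.6% of all genes that started in state 6 were. Gata4, placed on that list as silent, was in state 1 in each group and so was labelled active in these livers. Of 1125 olfactory receptor genes, which are silent in liver too, 9.87%, 22.0% and 14.0% were in state 6 and 87.6%, 53.1% and 77.1% in state 8.

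Another 50 germline genes had smaller shares in state 6. It held 12, 10 and 6 of them, or 24.0%, 20% and 12%, and the last of these shares was near the 12.2% of all genes. State 8 held 20, 21 and 23 (40%, 42.0% and 46%), a larger share than among the 40 members in SD 3m and a smaller one in both 12-month groups, and 27 were silent in all 3 groups (54.0%). At the starts used, 4 of the 50 were in state 1 or 2 in some group, against 0 of the 40 and 41.8% of all genes. They were Meiob (state 1 in each), Mlh3 (2, 1 and 2), Msh5 (1, 3 and 3) and Tdrkh (3, 1 and 1). In each group 3 of the 50 were in these states. Their Wilson interval of 2.06 to 16.2% overlaps that of the 40, which reaches 8.76%. With its most upstream curated start, Prdm9 among the 40 would be in state 1 as well. Mlh3 and Msh5 belong to the mismatch repair family, Meiob binds single-stranded DNA in meiosis, and Tdrkh is a Tudor protein of the piRNA pathway. The next genes come from lists of 5 or fewer, named after their values were seen. Mei1, Rad21l, Taf7l and Tex11 were in state 6 in all 3 groups. Boll, Nanos2, Odf1 and Rec114 were in state 6 in SD 3m and in state 8 in both 12-month groups. Taf7l and Tex11 lie on chromosome X, and all livers were of females. The paper names the Polycomb state as the most enriched one on this chromosome. Whether the label of Taf7l and Tex11 belongs to their promoters or to the chromosome was not tested.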

How the data were processed

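Libraries of 4 histone marks from mouse liver were grouped by the labels. The authors aligned reads to mm10 with BWA 0.6.2-r126, used SAMtools 0.1.18, removed poorly mapped reads and duplicates, merged the libraries of each group and ran ChromHMM. The deposited value is a state label per bin of 200 bp (13168874 bins in each of 3 segmentations) and not a signal, so the depth behind a label is unknown. The start of a gene was that of its longest curated RefSeq transcript in GRCm38.p6. The label of the bin holding the start, of the 21 bins within 2 kb and of the gene body was counted with pandas 2.3.3, scipy 1.17.1 and numpy 2.4.6 under Python 3.11.15, and drawn with matplotlib 3.10.9. The counting functions were tested on simulated segmentations. Wilson and median intervals of 95% cover counting over genes, not mice. For the mean shares within 2 kb, the interval counted each of the 21 bins of a member as independent. Neighbouring bins mostly share a label, so that interval is too narrow. The members and the other gene lists were chosen with earlier results of these data known. Every member is named with its states, with window or body values for those in states 1 to 7 at the start in any group. A few other genes are not reported here. The somatic relatives listed were also named by rule. Of the other germline genes, all those in state 1 or 2 in some group are named. The rest of those named were chosen after their values were seen. Of the 50, 11 (22.0%) were in enhancer states in every group, and these are not named. Alternatives changed the start, the bin, the window, the smoothing, the members kept, the CpG window and the background.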

Additional observations from a re-analysis of the deposited data

How the results depend on the processing

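Of 166 values recomputed under 14 alternative settings, 146 stayed within a ratio of 1.5 (counts) or within the 95% interval (shares and medians), although some gene body medians, given beside the result, moved by more than 1.5 times within wide intervals. No alternative moved a count of members in states 3 to 8 or of changed members past that ratio. The count of 0 members in states 1 or 2 became 1 in each group with the most upstream curated start (Prdm9), and 2 in SD 3m with the bin 200 bp upstream (Syce2 and Tex14). With autosomal protein-coding genes only (20021 genes), the background was 9.98%, 13.8% and 11.6% in state 6, 25.5%, 19.4% and 23.5% in state 8, and 46.5%, 40.5% and 35.8% in states 1 or 2, and 35.5% changed in CR 12m. Without the 5 members that have another start within 2 kb, mean state 6 in the window was 18.8% in CR 12m. That value lay outside an interval that counts bins and is too narrow. With a single CpG window of 1 kb, 4 members were high and 16 low. For state 8 alone, the median stretch was 21800, 22400 and 44800 bp. No paired analysis was possible because each group has 1 segmentation of merged libraries and no test was made. Depth, the spread between mice and the cell types behind a label are unknown, and their part in the differences between groups was not tested.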
